A study of Mus musculus with 12 samples.

Results

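The cytokine receptor genes of Th17 cells described here are 10 of the 55401 genes counted in this mouse series. They were chosen by symbol, through the Ensembl gene identifier, by their role as receptor chains and with earlier results of these data known: Il2ra, Il2rb, Il2rg, Il21r, Il12rb1, Il12rb2, Il23r, Il6ra, Il6st and Il1r1. All 10 passed the filter on low counts. RNA had been sequenced from Th17 cells, IL-17-making helper T cells, that were grown out of naive T cells of lymph nodes; every group shared the WT genotype and this differentiation. The groups were Kira8+Stattic, Stattic and Kira8, each given for 4 h, and None, which received no inhibitor, with 3 libraries per group. Kira8 inhibits IRE1alpha, a stress sensor of the endoplasmic reticulum, and Stattic inhibits STAT3. The labels give neither the age nor the sex nor the pooling of the mice, do not say whether replicates were separate cultures or animals, and do not say whether None received a solvent, so the p-values here rest on a between-sample spread that may be technical.

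Cytokine receptors of this kind are assembled from chains that several cytokines share. Il2rg encodes the common gamma chain, used by the receptors of IL-2, IL-4, IL-7, IL-9, IL-15 and IL-21, and Il6st encodes gp130, used by the receptors of IL-6, IL-11, LIF and oncostatin M. Il12rb1 serves both the IL-12 receptor, with Il12rb2, and the IL-23 receptor, with Il23r. The chains have no kinase of their own and signal through JAK kinases to STAT factors; IL-6, IL-21 and IL-23 signal mainly through STAT3, IL-12 through STAT4 and IL-2 through STAT5. IL-1 receptor type 1, encoded by Il1r1, is of another family and signals through MyD88 and IRAK kinases. IL-6 and IL-21 drive the Th17 state, IL-23 maintains it, IL-1 promotes it and IL-2 restrains it.

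The promoters of the receptor genes with the largest changes under Stattic are printed first, since a STAT inhibitor raises the question of which of them carry the palindromic STAT motif. RefSeq (GRCm38.p6) gave promoters for 8 of the 10 genes, Il2rb and Il12rb1 being named only, and 9 promoters in all because Il1r1 has an upstream and a downstream start. Each covers 250 bases before to 50 bases after the start, is written 5′ to 3′ on the gene's own strand, and carries capitals where a searched motif matched. The motifs were the STAT motif TTCNNNGAA, the heat shock motifs GAANNTTC and TTCNNGAA and the AP-1 motif TGANTCA; each reads the same on both strands, and none of the matches printed overlaps another. Il6st (chr13:112463820-112464119, plus strand) and both starts of Il1r1 (upstream chr1:40224830-40225129, plus strand; downstream chr1:40266336-40266635, plus strand) are shown because the counts of these genes were higher with Stattic, and Il21r (chr7:125603179-125603478, plus strand), Il12rb2 (chr6:67376139-67376438, minus strand) and Il2ra (chr2:11642542-11642841, plus strand) because theirs were lower. Counts are per gene, so the starts of Il1r1 were not measured apart.
Il6st: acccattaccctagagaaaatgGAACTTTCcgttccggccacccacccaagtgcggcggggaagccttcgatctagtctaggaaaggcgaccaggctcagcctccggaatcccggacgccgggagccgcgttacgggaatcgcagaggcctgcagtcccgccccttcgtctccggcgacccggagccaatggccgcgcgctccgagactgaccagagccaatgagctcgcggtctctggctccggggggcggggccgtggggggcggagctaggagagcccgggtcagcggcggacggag
Il1r1 upstream: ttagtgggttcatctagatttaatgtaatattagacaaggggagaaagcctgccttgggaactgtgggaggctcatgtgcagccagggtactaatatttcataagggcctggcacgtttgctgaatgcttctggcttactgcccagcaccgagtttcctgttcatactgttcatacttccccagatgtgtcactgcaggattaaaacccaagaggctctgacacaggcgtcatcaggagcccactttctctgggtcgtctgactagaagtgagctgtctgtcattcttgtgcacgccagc
Il1r1 downstream: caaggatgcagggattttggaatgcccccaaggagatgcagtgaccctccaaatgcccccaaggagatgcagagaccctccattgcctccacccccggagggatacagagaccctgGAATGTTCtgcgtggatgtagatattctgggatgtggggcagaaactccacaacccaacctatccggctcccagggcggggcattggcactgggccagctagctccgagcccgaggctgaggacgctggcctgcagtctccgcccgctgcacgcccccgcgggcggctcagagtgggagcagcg
Il21r: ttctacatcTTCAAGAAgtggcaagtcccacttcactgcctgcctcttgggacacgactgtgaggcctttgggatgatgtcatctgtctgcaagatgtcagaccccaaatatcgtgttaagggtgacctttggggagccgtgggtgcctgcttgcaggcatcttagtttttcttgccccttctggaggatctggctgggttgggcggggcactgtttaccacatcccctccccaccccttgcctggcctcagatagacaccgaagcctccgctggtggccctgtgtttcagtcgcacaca
Il12rb2: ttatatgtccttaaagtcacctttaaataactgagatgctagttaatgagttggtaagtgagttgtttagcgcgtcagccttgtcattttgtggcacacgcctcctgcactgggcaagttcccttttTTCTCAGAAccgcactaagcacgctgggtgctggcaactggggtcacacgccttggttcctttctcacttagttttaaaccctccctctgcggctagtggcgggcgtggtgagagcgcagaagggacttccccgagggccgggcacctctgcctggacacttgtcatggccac
Il2ra: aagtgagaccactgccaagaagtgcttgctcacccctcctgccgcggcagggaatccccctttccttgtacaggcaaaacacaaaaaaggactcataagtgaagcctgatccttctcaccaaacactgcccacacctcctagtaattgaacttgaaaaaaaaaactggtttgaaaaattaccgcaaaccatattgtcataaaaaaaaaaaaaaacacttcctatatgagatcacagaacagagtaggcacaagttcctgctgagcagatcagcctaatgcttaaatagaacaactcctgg
Only the Il12rb2 promoter held the STAT motif, as TTCTCAGAA at -123, which 8.3% of 32851 mouse promoters of the same length also hold. GAANNTTC was found as GAACTTTC at -228 of Il6st and as GAATGTTC at -134 of the downstream Il1r1 start, against 7.86% of all promoters. TTCNNGAA was found as TTCAAGAA at -241 of Il21r and at -84 of Il23r, against 8.52% of all promoters. TGANTCA (7.81% of all promoters) matched none of the 9, and the windows of Il2ra, Il2rg, Il6ra and the upstream Il1r1 start held no match to any of the motifs. In all, 5 of the 9 receptor promoters held a match, where 27.6% of all promoters do. A match describes letters in this window and says nothing of binding, and regulatory sequence outside the 300 bases was not searched.

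Total counts were 51.7 to 85.9 M (M, 1e+06) in 10 of the 12 libraries. Kira8 replicate 2 (19.8 M) and Stattic replicate 2 (9.28 M) stood apart: mitochondrial transcripts took 61.5% and 10.7% of their counts, against 3.38% to 5.22% elsewhere. The gene model Gm10800 took 2.91% and 19.1%, against 0.00126% to 0.00826% elsewhere. Of 1407 olfactory genes, 36.0% and 28.9% had counts, against 3.62% to 8.74%. Spearman's correlation with the 10 other libraries was 0.485 to 0.507 and 0.463 to 0.493, against 0.895 to 0.979 among those 10. The cytokine receptor genes took 0.0165% and 0.046%, against 0.153% to 0.494%. Stattic replicate 2 held 848 counts of Il2ra and 0 of Il23r, and Kira8 replicate 2 held 1760 and 6; a count of 0 of 9.28 M allows up to 0.323 counts per 1e+06 (counts per M, CPM), a floor that covers counting error only. The values below come from the 10 other libraries (Kira8+Stattic and None n = 3, Stattic and Kira8 n = 2) unless all 12 are named. Levels are CPM after TMM scaling, and log2 changes carry the standard error (±) of edgeR's quasi-likelihood test. A gene was called where the p adjusted by Benjamini and Hochberg's method across the 21239 tested genes was below 0.05.

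Stattic, with or without Kira8, was followed by lower transcripts of most receptor chains and higher transcripts of Il6st and Il1r1, while Kira8 alone lowered 3. With Kira8+Stattic, 9 of the 10 receptor genes differed from None, 7 lower and 2 higher, where 40.8% of all genes tested were called, 20% lower and 20.8% higher. With Stattic, 8 of 10 differed from None, 6 lower and 2 higher, where 39% of all genes were called, 18.9% lower and 20.1% higher. With Kira8, 3 of 10 were lower than None and 0 higher, where 19.3% of all genes were called, 9.59% lower and 9.7% higher. In edgeR 4 of the 10 had an unadjusted p under 0.05, near the share over all genes (6789 of 21239). The share of receptor genes called lower was thus above the share over all genes in each of these comparisons, and the median receptor change was -0.85, -0.74 and -0.25 for Kira8+Stattic, Stattic and Kira8, beside medians over all genes of 0.09, 0.08 and 0. These comparisons share the None libraries, so their counts are not independent of each other.

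**Figure D1:**
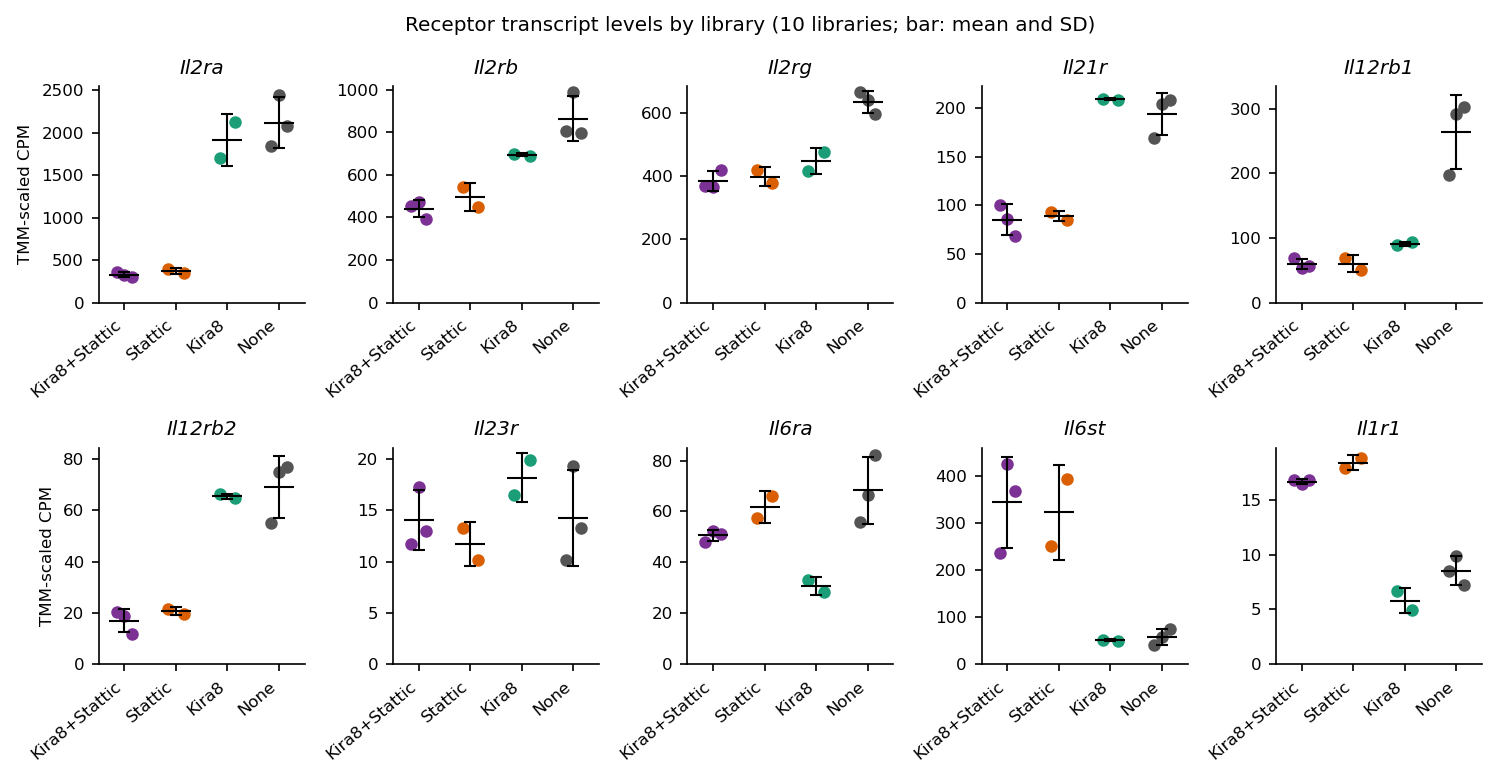
Transcript level of each receptor gene in TMM-scaled CPM (linear axis from 0, own scale per panel), 1 point per library, with bars for the mean and SD of Kira8+Stattic (n = 3), Stattic (n = 2), Kira8 (n = 2) and None (n = 3). The 5 libraries with Stattic lie apart from the 5 without it for Il2ra, Il2rb, Il21r, Il12rb1, Il12rb2, Il6st and Il1r1, and the Kira8 libraries lie below None for Il12rb1, Il6ra, Il2rg, Il2rb and Il1r1 and just above it for Il21r.

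In all 12 libraries edgeR called 0 of the 10 receptor genes in every comparison. The all-gene share called was 0.272% for Kira8+Stattic against None (0.133% higher, 0.138% lower), 0.31% for Stattic against None (0.105% higher, 0.205% lower) and 0% in the other comparisons, of 20993 genes. At an unadjusted p under 0.05 the 12-library fit had 4 receptor genes for Kira8+Stattic against None, 5 for Stattic against None, 1 for Kira8 against None and 4 for Kira8+Stattic against Kira8. Over all 20993 genes the counts were 2420, 4110, 2689 and 2536 in the same order. The 1 for Kira8 was thus near the share over all genes. The common dispersion was 1.01 there and 0.143 in the 10 libraries. Limma voom with quality weights on the same 12 libraries, which lowers the weight of deviating libraries, called 9, 8, 2 and 8 receptor genes in these comparisons. Over all genes it called 9959, 7778, 4672 and 9279.

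Compared per kilobase of exon, the most abundant receptor transcripts were the chains of the IL-2 receptor, and their order differed between the groups. With Kira8+Stattic the order was Il2rg (161 CPM per kilobase), Il2rb (103), Il2ra (57.6), Il6st (30.9), Il21r (25.6), Il12rb1 (14.4), Il6ra (5.86), Il23r (5.64), Il12rb2 (4.47) and Il1r1 (2.62), with overlapping library ranges between Il6st and Il21r, Il6ra and Il23r, and Il23r and Il12rb2. Stattic alone gave nearly that order, from Il2rg at 167 to Il1r1 at 2.89, again with Il6st and Il21r overlapping, except that Il12rb2 (5.44) stood before Il23r (4.72) with overlapping ranges. Kira8 alone put Il2ra (335) above Il2rg (187) and Il2rb (162), and Il6st (4.56) and Il6ra (3.55) near the foot, above Il1r1 (0.913), with no overlap between neighbours over its pair of libraries. In None, Il2ra (371) also led Il2rg (265) and Il2rb (201), followed by Il12rb1 (64.3) and Il21r (58.3), which overlapped, then Il12rb2 (18.2), Il6ra (7.90), Il23r (5.74) and Il6st (5.19), with overlaps from Il6ra to Il23r and from Il23r to Il6st, and Il1r1 (1.34). Il2ra thus held the top place without Stattic and the third with it, and Il6st took the fourth place with Stattic and the eighth or a lower one without it.

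**Figure D2:**
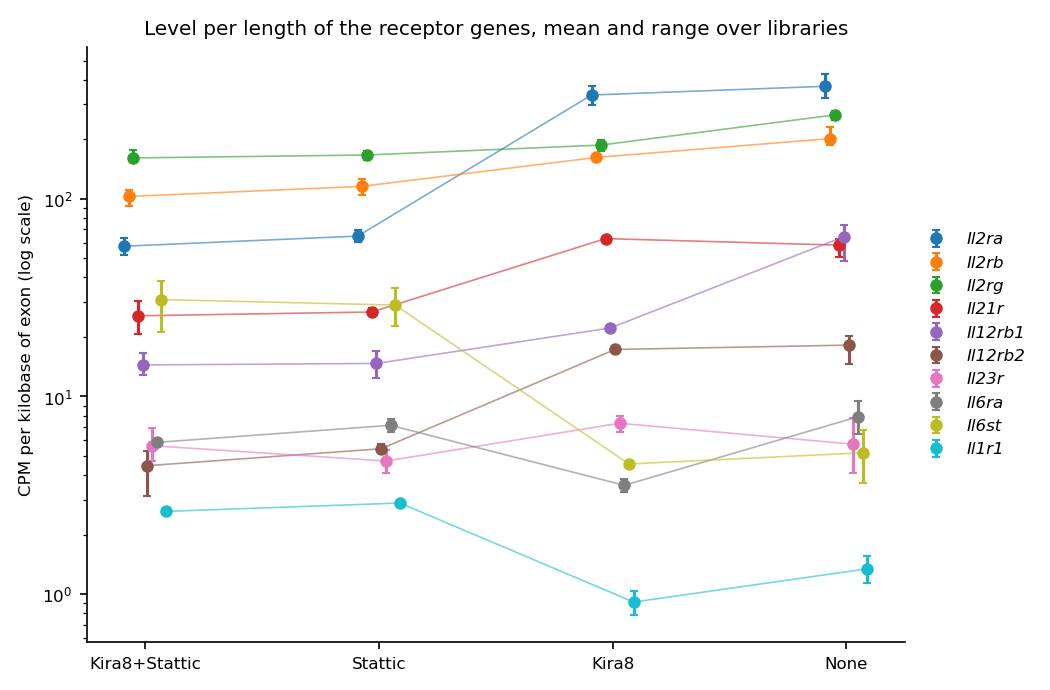
Level per length of the 10 receptor genes in TMM-scaled CPM per kilobase of exon (log axis), as the mean and the range over libraries in Kira8+Stattic, Stattic, Kira8 and None. The line of Il2ra lies at 57.6 and 64.7 with Stattic and at 335 and 371 without it, and that of Il6st at 30.9 and 29 against 4.56 and 5.19.

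Of the IL-2 receptor chains, Il2ra changed most. Il2ra (ENSMUSG00000026770, mm10 chromosome 2, 11642807 to 11693193, plus strand) encodes the alpha chain CD25, which raises the affinity for IL-2. It was at 362, 328 and 296 CPM in Kira8+Stattic, 395 and 345 in Stattic, 1698 and 2125 in Kira8, and 1837, 2439.9 and 2074 in None. All 5 libraries with Stattic were thus below all 5 without it, while the Kira8 and None libraries overlapped. The fall was 6.44-fold for Kira8+Stattic against None (-2.69 ± 0.17, adjusted p = 7.76e-07) and 5.72-fold for Stattic against None (-2.52 ± 0.20, adjusted p = 4.51e-06), and Kira8 alone gave -0.15 ± 0.18 (adjusted p = 0.644). In all 12 libraries the Stattic change was -2.92 ± 0.69 (adjusted p = 0.11). A gene model without established function, Gm37881, overlaps Il2ra on the same strand, and the treatment of overlapping genes in counting is not given in the sources used here.

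Il2rb and Il2rg moved less. Il2rb (ENSMUSG00000068227, chromosome 15, 78479256 to 78495271, minus strand) encodes the signalling beta chain shared by the IL-2 and IL-15 receptors and had 453, 473 and 395 CPM in Kira8+Stattic, 543 and 449 in Stattic, 699 and 688 in Kira8, and 806, 987 and 798 in None. These values form 3 levels that do not overlap: the libraries with Stattic, those with Kira8 alone, and None. Against None the change was -0.97 ± 0.15 for Kira8+Stattic (adjusted p = 0.000294) and -0.80 ± 0.17 for Stattic (adjusted p = 0.00293), and the value for Kira8, -0.32 ± 0.17, was not called (adjusted p = 0.223). Il2rg (ENSMUSG00000031304, chromosome X, 101264378 to 101268255, minus strand) had 367, 365 and 419 CPM in Kira8+Stattic, 418 and 377 in Stattic, 417 and 475 in Kira8, and 665, 639.8 and 596 in None. None lay above all treated libraries, and the treated groups overlapped or touched. Il2rg fell 1.65-fold with Kira8+Stattic (-0.72 ± 0.14, adjusted p = 0.00113), 1.59-fold with Stattic (-0.67 ± 0.15, adjusted p = 0.00446) and 1.42-fold with Kira8 (-0.51 ± 0.15, adjusted p = 0.0367). The Kira8 call ended without Kira8 replicate 1 (adjusted p = 0.307), Kira8 replicate 3 (0.133), Kira8+Stattic replicate 2 (0.0603) or None replicate 2 (0.059), without a filter (0.0764) and with voom quality weights on 12 libraries (0.0776), and the Stattic call without Stattic replicate 3 (0.0519). The gene model Gm20489 overlaps Il2rg on the same strand, so its count is uncertain.

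The ratio of the alpha chain to the common gamma chain, per length and chosen after the values were seen, described the same shift within each library. Il2ra over Il2rg was 0.412, 0.376 and 0.295 in Kira8+Stattic, 0.394 and 0.383 in Stattic, 1.70 and 1.87 in Kira8, and 1.15, 1.59 and 1.45 in None. The alpha chain transcript was below the gamma chain transcript in every library with Stattic and above it in every library without. Il2rb over Il2rg stayed between 0.524 and 0.934 in all 10 libraries.

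Il21r, whose product pairs with the common gamma chain to bind IL-21, went with Il2ra. Il21r (ENSMUSG00000030745, chromosome 7, 125603429 to 125633570, plus strand) was at 101, 86.3 and 68.5 CPM in Kira8+Stattic, 92.9 and 85.0 in Stattic, 209.5 and 208 in Kira8, and 169, 204 and 208 in None. The libraries with Stattic were all below those without, and the Kira8 libraries lay just above those of None. It fell 2.28-fold with Kira8+Stattic (-1.19 ± 0.16, adjusted p = 0.000112) and 2.18-fold with Stattic (-1.12 ± 0.18, adjusted p = 0.000526), and the Kira8 value was 0.11 ± 0.18 (adjusted p = 0.733). In the 12 libraries the Stattic change was -1.47 ± 0.56 (adjusted p = 0.212).

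The chains of the IL-12 and IL-23 receptors followed 3 separate patterns. Il12rb1 (ENSMUSG00000000791, chromosome 8, 70808449 to 70821424, plus strand), the chain that both receptors share, had 68.3, 52.9 and 56.6 CPM in Kira8+Stattic, 69.7 and 50.9 in Stattic, 88.8 and 93.5 in Kira8, and 198, 292 and 302 in None. Each inhibitor alone left it below the lowest None library, with Kira8 between the Stattic groups and None and no overlap on either side. Il12rb1 was 4.46-fold lower with Kira8+Stattic (-2.16 ± 0.20, adjusted p = 6.1e-06), 4.38-fold with Stattic (-2.13 ± 0.23, adjusted p = 2.84e-05) and 2.90-fold with Kira8 (-1.54 ± 0.22, adjusted p = 0.000698). It had the largest Kira8 change of the 10 receptor genes, and with all 12 libraries that change was -2.01 ± 0.60 (adjusted p = 0.373) and the Stattic change -2.42 ± 0.61 (adjusted p = 0.124).

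Il12rb2 (ENSMUSG00000018341, chromosome 6, 67291318 to 67376188, minus strand), the signalling chain of the IL-12 receptor and a feature of Th1 cells, had 20.2, 18.7 and 11.9 CPM in Kira8+Stattic, 21.7 and 19.6 in Stattic, 66.3 and 64.9 in Kira8, and 55.1, 74.9 and 77.1 in None. The libraries with Stattic were all lower than those without, and both Kira8 libraries lay inside the None range. It fell 4.08-fold with Kira8+Stattic (-2.03 ± 0.21, adjusted p = 1.43e-05) and 3.34-fold with Stattic (-1.74 ± 0.24, adjusted p = 0.000145), and the Kira8 value was -0.07 ± 0.22 (adjusted p = 0.875). Serbp1 overlaps Il12rb2 on the opposite strand, and without a stated strand setting their reads cannot be told apart at the overlap.

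Il23r (ENSMUSG00000049093, chromosome 6, 67422932 to 67491855, minus strand), the chain specific to the IL-23 receptor, had 11.7, 17.3 and 13.0 CPM in Kira8+Stattic, 13.3 and 10.2 in Stattic, 16.5 and 19.9 in Kira8, and 10.2, 19.3 and 13.3 in None. All groups overlapped with None, and None alone spanned nearly the whole range. Against None the values were -0.02 ± 0.24 for Kira8+Stattic (adjusted p = 0.948), -0.28 ± 0.28 for Stattic (adjusted p = 0.445) and 0.35 ± 0.27 for Kira8 (adjusted p = 0.412). Il23r lies next to Il12rb2 on the same strand of chromosome 6 but was not called where Il12rb2 was. The ratio of Il12rb1 to Il23r per length, also chosen after the values were seen, was 3.53, 1.85 and 2.63 in Kira8+Stattic, 3.18 and 3.03 in Stattic, 3.26 and 2.85 in Kira8, and 11.8, 9.17 and 13.8 in None. Every treated library was thus below the lowest None library, and the treated groups overlapped.

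The IL-6 receptor chains moved in different ways under the inhibitors. Il6st (ENSMUSG00000021756, chromosome 13, 112464070 to 112510086, plus strand) was at 237, 425 and 368 CPM in Kira8+Stattic, 251 and 393 in Stattic, 52.2 and 49.0 in Kira8, and 40.4, 57.2 and 75.2 in None. The lowest library with Stattic held over 3 times the level of the highest without it. Il6st rose 5.95-fold with Kira8+Stattic (2.57 ± 0.28, adjusted p = 2e-05) and 5.59-fold with Stattic (2.48 ± 0.29, adjusted p = 5.36e-05), the largest rise of the 10 genes, and the Kira8 value was -0.19 ± 0.29 (adjusted p = 0.724). The Stattic change with all 12 libraries was 1.97 ± 0.67 (adjusted p = 0.186).

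Il6ra (ENSMUSG00000027947, chromosome 3, 89864059 to 89913196, minus strand) encodes the IL-6-binding alpha chain and had 48.2, 52.4 and 51.3 CPM in Kira8+Stattic, 57.4 and 66.2 in Stattic, 33.1 and 28.3 in Kira8, and 56.0, 66.4 and 82.4 in None. Kira8 alone was lowest, below every other library, and Stattic lay within the None range. Il6ra fell 2.22-fold with Kira8 (-1.15 ± 0.18, adjusted p = 0.00126), was not called with Stattic (-0.14 ± 0.18, adjusted p = 0.551), and was 1.35-fold lower with Kira8+Stattic (-0.43 ± 0.16, adjusted p = 0.0457). That last call ended under RLE scaling (adjusted p = 0.0561), without a filter (0.0658), with a filter at 1 CPM (0.0544) and on leaving out any 1 library except None replicate 1 (0.0529 to 0.195); without None replicate 3 the change was -0.27 ± 0.15. An antisense gene, Gm42809, overlaps Il6ra, so its count is uncertain too.

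**Figure D3:**
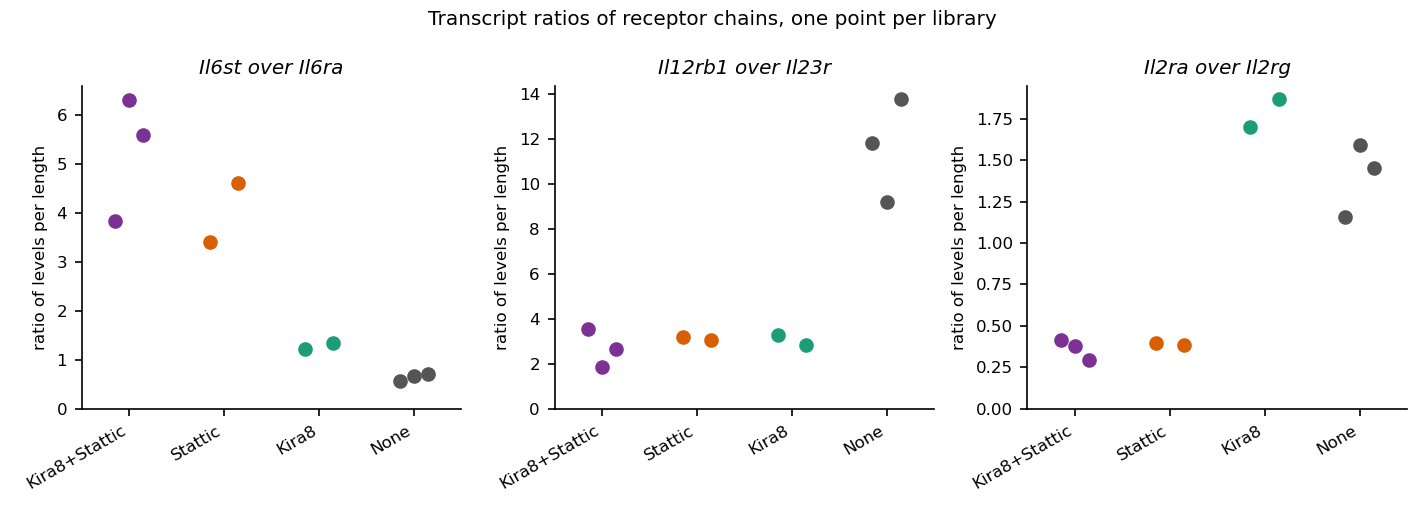
Ratio of levels per length (unitless, linear axis from 0) of Il6st over Il6ra, Il12rb1 over Il23r and Il2ra over Il2rg, 1 point per library, in Kira8+Stattic, Stattic, Kira8 and None. Il6st over Il6ra lies at 3.41 to 6.31 in the 5 libraries with Stattic, 1.23 to 1.35 with Kira8 and 0.562 to 0.711 in None, and None lies apart from every treated group in all panels, between Kira8 and the libraries with Stattic for Il2ra over Il2rg.

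The ratio of Il6st to Il6ra per length was 3.82, 6.31 and 5.59 in Kira8+Stattic, 3.41 and 4.62 in Stattic, 1.23 and 1.35 in Kira8, and 0.562, 0.671 and 0.711 in None. The gp130 transcript was therefore below the alpha chain transcript only in None, and above it in all 7 treated libraries. Il6ra was called lower with Kira8, and Il6st was called higher with Stattic. The ratio was chosen after the values were seen and was given no test.

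Il1r1 (ENSMUSG00000026072, chromosome 1, 40225080 to 40317257, plus strand), the signalling receptor of IL-1, was the least abundant of the 10 per length and rose with Stattic. It had 16.8, 16.4 and 16.8 CPM in Kira8+Stattic, 17.9 and 18.9 in Stattic, 6.64 and 4.97 in Kira8, and 8.55, 9.91 and 7.21 in None. The 5 libraries with Stattic lay within 3 CPM of each other and above all others, and the Kira8 libraries lay just below None. Il1r1 rose 1.95-fold with Kira8+Stattic (0.96 ± 0.18, adjusted p = 0.00113) and 2.15-fold with Stattic (1.10 ± 0.20, adjusted p = 0.000958), and Kira8 gave -0.56 ± 0.21, which edgeR did not call (adjusted p = 0.0797) and DESeq2 did (adjusted p = 0.0363). The gene model Gm38070 overlaps Il1r1 on the same strand.

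**Figure D4:**
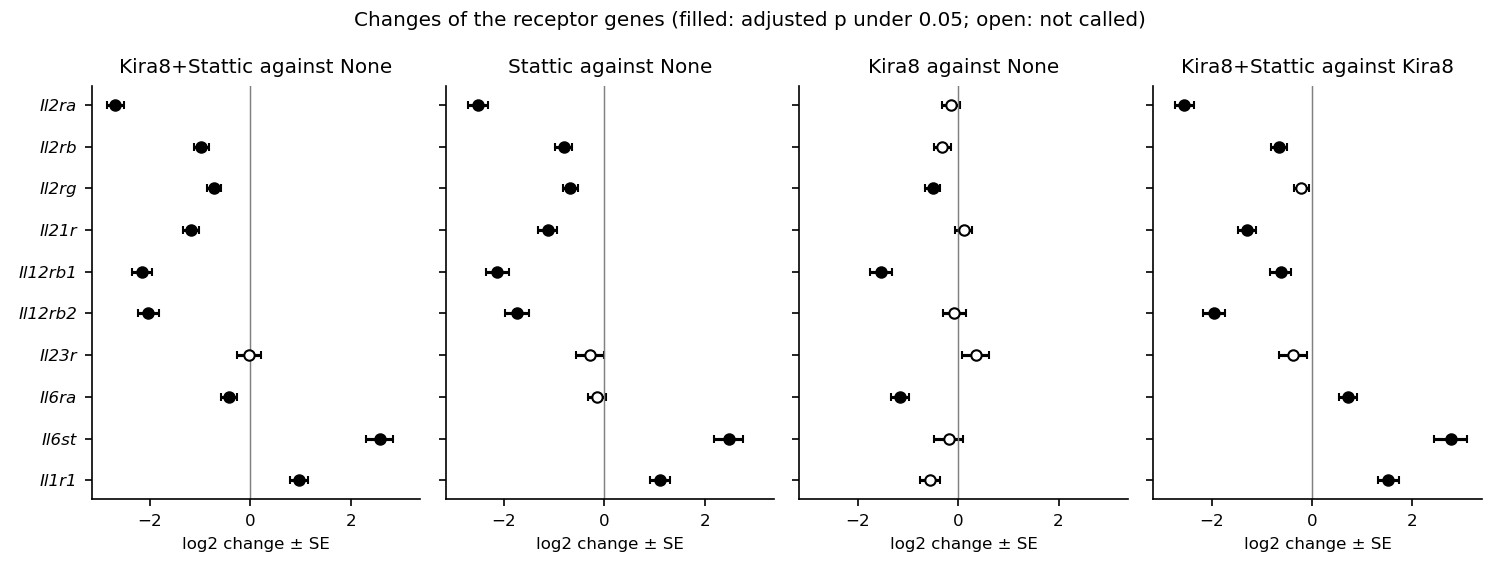
Log2 change ± SE of the 10 receptor genes in edgeR, in panels for Kira8+Stattic against None, Stattic against None, Kira8 against None and Kira8+Stattic against Kira8, with filled points at an adjusted p under 0.05. The first, second and last panels have Il2ra near -2.5 and Il6st near 2.5, and the Kira8 panel has filled points for Il12rb1, Il6ra and Il2rg alone.

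Stattic was also set against its absence within Kira8-treated cells, in libraries that the comparison of Stattic with None does not use. With Kira8+Stattic, 8 of 10 receptor genes differed from Kira8, 5 lower and 3 higher, where 30.7% of all genes were called, 16% lower and 14.7% higher. Il2ra was at -2.54 ± 0.18 (adjusted p = 7.9e-06), Il12rb2 at -1.95 ± 0.22 (adjusted p = 8.48e-05) and Il21r at -1.30 ± 0.17 (adjusted p = 0.000258). The same genes were at -2.52, -1.74 and -1.12 for Stattic against None. Among the genes that rose, Il6st was 6.78-fold higher (2.76 ± 0.33, adjusted p = 0.000114) and Il1r1 2.87-fold (1.52 ± 0.21, adjusted p = 0.00031). Il6ra, not called for Stattic against None, was 1.65-fold higher in Kira8+Stattic than in Kira8 (0.72 ± 0.18, adjusted p = 0.0102), a call that ended without Kira8 replicate 3 (0.129). Smaller falls were those of Il2rb (-0.66 ± 0.16, adjusted p = 0.0103) and Il12rb1 (-0.62 ± 0.21, adjusted p = 0.04). The Il2rb call ended without Kira8 replicate 1 (0.0799) or 3 (0.0732), and the Il12rb1 call with the replicate block (0.0581) and without Kira8 replicate 1 (0.134) or 3 (0.19) or Kira8+Stattic replicate 2 (0.126) or 3 (0.111). Il2rg (-0.22 ± 0.15, adjusted p = 0.301) and Il23r (-0.38 ± 0.27, adjusted p = 0.317) were not called. In the 12 libraries Il6ra had the opposite sign (-0.10 ± 0.51, adjusted p = 0.953).

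Between these disjoint sets of libraries, 7 of the 10 receptor genes were called in the same direction with and without Kira8, which is 7 of the 8 called in each, and 0 in opposite directions. Both comparisons came from the same fit of all 4 groups, with a shared estimate of the spread. Only the libraries compared are disjoint, and the calls are not independent. Over all genes 4191 of 21239 (19.7%) were called the same way in both and 170 opposite ways. Beside the 7 of 8, these 4191 are to be set against the 8281 genes called without Kira8 and the 6514 called with it. The 7 are Il2ra, Il2rb, Il21r, Il12rb1, Il12rb2, Il6st and Il1r1; Il2rg was called without Kira8 and Il6ra with it.

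**Figure D5:**
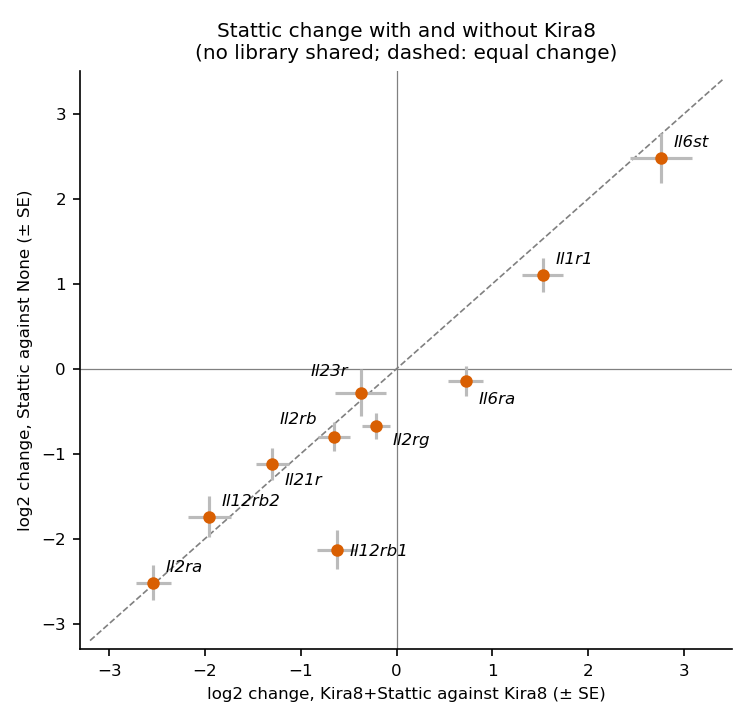
Log2 change ± SE of each receptor gene for Kira8+Stattic against Kira8 (horizontal) and Stattic against None (vertical), which share no library, with a dashed line of equal change. Most genes lie near the line, Il12rb1 lies below it at -0.62 and -2.13, and Il6ra lies right of it at 0.72 and -0.14.

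No receptor gene was called by edgeR when Kira8 was added to Stattic. With Kira8+Stattic, 0 of 10 differed from Stattic, and 0 had an unadjusted p under 0.05; DESeq2 and limma voom also called 0. Over all genes 0.0141% were called (0.00942% higher, 0.00471% lower), with 874 at an unadjusted p under 0.05. The receptor values ran from -0.29 ± 0.18 for Il6ra to 0.26 ± 0.28 for Il23r, all with an adjusted p of 1. A p that misses the threshold does not show that the groups are alike. For Il6ra the Kira8+Stattic libraries (48.2 to 52.4 CPM) lay below the Stattic libraries (57.4 to 66.2). Those of Il1r1 did too (16.4 to 16.8 against 17.9 to 18.9), and the libraries of all other receptor genes overlapped. For Il12rb1, whose fall with Kira8 alone was the largest, the levels were 59.3 ± 8.02 CPM (SD, n = 3) in Kira8+Stattic and 60.3 ± 13.3 (SD, n = 2) in Stattic.

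The interaction asks whether Kira8 changed a gene differently in the presence of Stattic than in its absence. It was called for 1 of 10 receptor genes, where 8.52% of all genes were called, 4.55% positive and 3.97% negative. That gene was Il12rb1 (1.51 ± 0.30, adjusted p = 0.0121): Kira8 lowered it 2.90-fold without Stattic and left the group means within 1 SD of each other with it. The call ended without Stattic replicate 3 (adjusted p = 0.0635), Kira8 replicate 1 (0.0673) or Kira8 replicate 3 (0.0587), with changes of 1.30 to 1.55, and with all 12 libraries it was 2.26 ± 0.83 (adjusted p = 0.221). Il6ra gave 0.86 ± 0.25 (adjusted p = 0.055), which is not a call in edgeR, whereas DESeq2 (0.0111), scaling by library size alone (0.0476), a 1 CPM filter (0.0367), voom with quality weights on 12 libraries (0.0399) and leaving out None replicate 1 (0.0193) each put it under 0.05. With all 12 libraries its sign turned (-0.41 ± 0.73, adjusted p = 0.861). The other 8 genes had adjusted p-values of 0.217 to 0.987, the lowest for Il2rg (0.46 ± 0.21).

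Ligands of these receptors, a list of 17 cytokine genes of which 14 were tested, were lower where called. With Kira8+Stattic 8 of 14 were lower than None and 0 higher (20% and 20.8% over all genes), with Stattic 6 and 0 (18.9% and 20.1%), and with Kira8 5 and 0 (9.59% and 9.7%). Il2, the ligand of the Il2ra complex, averaged 1.82 CPM in Kira8+Stattic, 1.80 in Stattic, 6.66 in Kira8 and 53.8 in None (-4.88 ± 0.59, -4.90 ± 0.71 and -3.01 ± 0.63 against None, adjusted p = 4.91e-05, 0.000231 and 0.00591). Il21 averaged 122, 179, 295 and 512 CPM in the same order of groups, with changes of -2.07, -1.51 and -0.79 (adjusted p = 4.93e-06, 0.000147 and 0.0156). Osm, a gp130 ligand, was at -2.12, -2.12 and -0.88 (adjusted p = 4.51e-06, 1.93e-05 and 0.00948), and Lif, another, at -1.42, -0.67 and -0.92 (adjusted p = 0.000101, 0.0244 and 0.0102). Il4, at 0.239 CPM in Kira8 and 1.53 in None, had the smallest adjusted p of the list for Kira8 (-2.67, adjusted p = 0.00449), and Il1rn, the IL-1 receptor antagonist, was lower with Stattic (-1.48, adjusted p = 0.0046). The IL-1 gene Il1a, at 2.38 CPM in None, was lower with Stattic too (-3.53, adjusted p = 0.0184) and with Kira8+Stattic (-3.41, adjusted p = 0.00761). Il1b, at 1.48 CPM in None, was lower with Kira8+Stattic (-1.64, adjusted p = 0.00547) and not called with Stattic (-1.19, adjusted p = 0.0527). Transcripts of Il6, Il12a, Il15 and Il23a averaged under 1 CPM in every group.

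The JAK kinases on which the chains rest did not move as a block. Jak1 was higher with Kira8+Stattic (0.93, adjusted p = 0.000801) and with Stattic (1.12, adjusted p = 0.000507), as was Jak3 (0.48 and 0.60, adjusted p = 0.0389 and 0.0239), the kinase bound by the common gamma chain. Tyk2, the partner of Il12rb1, was lower with both (-0.89 and -1.01, adjusted p = 0.00281 and 0.00351). Jak2 was higher with Kira8 alone (1.36, adjusted p = 0.00335), averaging 602 CPM in Kira8+Stattic, 655 in Stattic, 1080.3 in Kira8 and 421 in None, and its interaction was -1.48 (adjusted p = 0.0279). Of the 8 genes of IL-1 receptor signalling, 2 were higher and 2 lower with Stattic, counts near the 20.1% and 18.9% over all genes: the kinase Irak2 (1.34, adjusted p = 0.00168) and the inhibitor Tollip (0.61, adjusted p = 0.00617) were higher, and the kinases Irak1 (-0.92, adjusted p = 0.00127) and Irak4 (-1.10, adjusted p = 0.00289) lower. With Kira8+Stattic the counts were also 2 and 2, near the 20.8% higher and 20% lower over all genes. With Kira8 1 was higher (Tollip, 0.72, adjusted p = 0.00502) and 2 lower (Il1r2, -0.76, adjusted p = 0.0306, and Myd88, -0.53, adjusted p = 0.0358), where 9.7% of all genes were higher and 9.59% lower.

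A list of 37 other cytokine receptor genes, 34 of them tested, went both ways. With Kira8+Stattic 7 were higher and 7 lower than None (20.8% and 20% over all genes), with Stattic 10 higher and 7 lower (20.1% and 18.9%), and with Kira8 7 higher and 3 lower (9.7% and 9.59%). With Kira8+Stattic both counts were thus near the share over all genes, as were the lower counts with Stattic and with Kira8. The difference from the 10 genes was not tested. Stattic raised Il11ra1 (2.30, adjusted p = 3.99e-05), which pairs with gp130, Tgfbr2 (1.25, adjusted p = 0.000109) and Il17ra (1.16, adjusted p = 0.000453) and lowered Il15ra (-2.07, adjusted p = 6.95e-05), the alpha chain that pairs with Il2rb and Il2rg. Kira8 raised the interferon receptor chains Ifnar1 (1.58, adjusted p = 0.000104), Ifngr1 (adjusted p = 0.000224) and Ifngr2 (1.27, adjusted p = 0.000616) and the IL-7 receptor chain Il7r (1.10, adjusted p = 0.000606). The interferon receptor chains Ifnar2 (0.36, adjusted p = 0.122) and Ifnlr1 (adjusted p = 0.394) were not called with Kira8. Ifnar1, Ifngr1, Ifngr2 and Il7r were the 4 of 34 called for the interaction, each negative (-1.29, -1.67, -1.62 and -1.19, adjusted p = 0.00713, 0.00329, 0.00424 and 0.00834). Over all genes 3.97% were called negative and 4.55% positive. Of 7 genes of receptor shedding and endocytosis, 1 was higher with each of Kira8+Stattic, Stattic and Kira8, and 1, 2 and 1 were lower. These counts were near the shares over all genes given above for each comparison. The ubiquitin ligase Cblb was higher with Kira8+Stattic (0.77, adjusted p = 0.00481), Stattic (0.77, adjusted p = 0.00919) and Kira8 (1.55, adjusted p = 0.000358), and Nedd4 was lower (-0.93, -0.78 and -1.79, adjusted p = 0.00638, 0.0324 and 0.000939). Stub1 was lower with Stattic (-0.44, adjusted p = 0.0251). Adam10 and Adam17 were not called against None (adjusted p = 0.123 to 0.97).

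Markers of T cells were present in every library: the 9-gene T cell list summed to 3072 to 3200 CPM in Kira8+Stattic, 3089.7 to 3762 in Stattic, 2369 to 2585 in Kira8 and 3216 to 3437 in None. Of the 9, 1 was higher and 2 lower with Kira8+Stattic against None, 2 higher and 2 lower with Stattic, and 0 higher and 4 lower with Kira8; Thy1 was lower in each (-0.69, -0.54 and -1.13, adjusted p = 0.00211, 0.0193 and 0.000734), while Cd4 was called in none. Of the 10 Th17 markers, which include Il23r, 6 were lower and 2 higher with Stattic against None, 6 and 2 with Kira8+Stattic, and 2 lower and 1 higher with Kira8. Over all genes 20% were lower and 20.8% higher with Kira8+Stattic, 18.9% and 20.1% with Stattic, and 9.59% and 9.7% with Kira8. These shares stand beside every marker count against None given here. The T cell counts with Stattic were near them, as were the higher Th17 counts in each comparison. Genes of other cells moved with the inhibitors and share receptor chains with the Th17 cells, so in these bulk samples fewer cells of a type and less RNA per cell cannot be told apart. The 8 markers of CD8 T and NK cells, in which Il2rb is also expressed, summed to 160 to 262 CPM in Kira8+Stattic, 487 to 592 in Stattic, 145 to 159 in Kira8 and 1040 to 1823 in None, with Ncr1 at 0 in 9 of the 10 libraries; against None 4 of the 7 tested were lower and 1 higher with Kira8+Stattic, 3 and 1 with Stattic, and 5 and 0 with Kira8. The 3 Th1 markers, beside Il12rb2, summed to 28.5 to 48.0, 36.4 to 50.8, 43.0 to 46.1 and 244 to 449 CPM in that order of groups, with 2, 2 and 3 of 3 called lower, while Il12rb2 with Kira8 stayed within the None range. B cell markers (10 genes) summed to 25.0 to 51.9, 21.5 to 37.3, 56.9 to 64.5 and 159 to 174 CPM, with 8, 9 and 6 of 10 called lower. The 5 Treg markers, beside Il2ra, summed to 1514 to 1691, 1399 to 1704, 1420.4 to 1434 and 785 to 981 CPM. Of these, 3 were lower and 1 higher with Kira8+Stattic, 3 and 1 with Stattic, and 1 and 1 with Kira8. Ctla4 was the one higher in each (1.22, 1.19 and 1.00, adjusted p = 5.68e-05, 0.000159 and 0.00143), and Foxp3 averaged 12.7 CPM in Kira8+Stattic, 13.9 in Stattic, 41.6 in Kira8 and 48.2 in None. The 9 myeloid markers summed to 33.0 to 118, 42.7 to 56.6, 71.0 to 72.5 and 43.3 to 62.4 CPM, and the 9 stromal and endothelial markers to 45.4 to 60.4, 48.1 to 62.6, 77.0 to 87.4 and 45.2 to 79.6 CPM, with 0 to 3 of the 9 at 0 in a library, most often Cdh5 and Dcn. The part of these cells in the receptor changes was not tested.

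The genes whose pattern over the 10 libraries was most like that of each receptor gene were ranked by Pearson's r of log2(CPM + 1) among 9658 genes with a mean of at least 5 CPM. These libraries share their groups, so r mostly describes the group pattern and has no p. Il21r and Il12rb2 were among each other's nearest genes (r = 0.993), after Arhgef2 (0.995) and Foxk1 (0.994) for Il21r and level with Ogdh (0.993) for Il12rb2. Nearest to Il2ra was Wdr1 (0.993), to Il6st Dcun1d4 (0.995) and Thbs1 (0.993), and to Il1r1 Id1 (0.982). Il12rb1 had as its nearest genes Rrp12 (0.996), Mybbp1a (0.994) and Gemin5 (0.994), and Il2rg had Rpf1 (0.991), Imp4 (0.978) and Rcl1 (0.977). Il2rb was nearest to Cyb5r4 (0.989). Il6ra and Il23r had no gene above 0.932 (Impdh2-ps) and 0.93 (Mkln1).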

How the data were processed

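Per the file header and values, the authors deposited raw read counts per Ensembl gene, 55401 genes in 12 libraries; 55141 matched the GENCODE annotation of mm10, the build in the submitters' processing notes. How reads were aligned and counted, with which strand setting, is not given in the sources used here. Libraries were grouped by title, and no pair of replicates agreed within sampling noise.

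The counts were filtered by filterByExpr, scaled by TMM and tested with edgeR 4.0.16 (quasi-likelihood, R 4.3.3) in a fit of all 4 groups, with Benjamini-Hochberg adjustment over 21239 genes and calls under 0.05. Kira8 replicate 2 and Stattic replicate 2 were left out, and a fit of all 12 libraries stands beside it. The members, gene lists and this exclusion were chosen with earlier results of these data known. All 10 receptor genes are named. List members are named from the called ones with the smallest adjusted p, up to 4 a list and comparison. Il21 (Kira8), Lif (Stattic), Il1a, Il1b, Adam10, Adam17, Cd4, Ifnar2, Ifnlr1, the ligands under 1 CPM and the marker genes were named after their values were seen. Nearest genes are the 3 with the highest r. Alternatives used DESeq2 1.42.0, limma voom 3.58.1, other scalings and filters, the replicate block and leaving out each library. The tests were tried on simulated counts. Per length, CPM is divided by the merged exon length. Numbers of replicates and counting error limit precision.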

Additional observations from a re-analysis of the deposited data

Results flagged for a closer look

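The Kira8 change of Il12rb1 differed with and without Stattic, by a test of the interaction (1.51 on the log2 scale, adjusted p = 0.0121, edgeR's quasi-likelihood test over all genes). Il12rb1 averaged 59.3 CPM in Kira8+Stattic, 60.3 in Stattic, 91.1 in Kira8 and 264 in None. Both Kira8 libraries lay below all 3 None libraries, and the Kira8+Stattic libraries overlapped the Stattic libraries. Leaving out Stattic replicate 3, Kira8 replicate 1 or Kira8 replicate 3 ended the call (adjusted p = 0.0635, 0.0673 and 0.0587). Alongside, interactions of the same sign were called for Tbx21 (1.91, adjusted p = 0.00813) and Ifng (adjusted p = 0.0109), Th1 markers, and for Cd8a (2.28, adjusted p = 0.0177). Positive interactions were called for 4.55% of all genes, 2 of 3 Th1, 3 of 7 CD8 T and NK, 4 of 10 B cell and 0 of 10 Th17 markers. Il2 was called too (3.04, adjusted p = 0.0499). The part of these genes in the Il12rb1 value was not tested.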

How the results depend on the processing

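Among 765 receptor results recomputed on 10 or fewer libraries, 721 kept their direction and their side of the threshold, 34 changed call and 10 changed sign. Many of these settings leave out a library of a group that is not compared, which can hardly move the log2 change. The settings also share most of their libraries, so the share kept is not a measure of robustness. The tally follows 45 results kept because the text prints them. They are all receptor genes against None and for Kira8+Stattic against Kira8, Il6ra and Il23r against Stattic, and the Il12rb1, Il6ra and Il2rg interactions. Other values against Stattic and other interactions, none of them called, are outside the tally. Settings on all 12 libraries are outside the 765 too. There edgeR left 10 of the 45 the same, 28 lost their call and 7 changed sign, and voom with quality weights left 43 the same. With all 12 libraries edgeR called 0 receptor genes in every comparison, and over all genes 57 for Kira8+Stattic against None, 65 for Stattic against None and 0 in the other comparisons; the cause was not tested. Among the 45 receptor results of this tally, signs turned with all 12 libraries for Kira8 against None in Il21r (-0.33) and Il23r (-0.18) and for Stattic against None in Il6ra (0.30). They also turned for Kira8+Stattic against Kira8 in Il2rg (0.32), Il6ra (-0.10) and Il23r (0.14), and for the Il6ra interaction (-0.41). Of the results outside these 45, signs turned there for Il2ra, Il2rb, Il2rg, Il21r, Il12rb1 and Il12rb2 in Kira8+Stattic against Stattic (0.13 to 0.34) and for the interactions of Il2ra, Il21r, Il23r and Il12rb2 (0.60 to 1.02), with no call on either side. Il23r in Kira8+Stattic against None, close to 0, turned with a 1 CPM filter (0.033), limma voom (0.012) and the replicate block (0.00059).

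For Kira8+Stattic against Stattic the count over all genes was 5 without a filter, 51 with DESeq2, 1 with limma voom and 0 with voom quality weights on 12 libraries. Interactions of 2 receptor genes were called with library size alone, a 1 CPM filter, DESeq2 and voom quality weights, and DESeq2 called 3119 over all genes. Library size alone moved the median of all genes by -0.16 for Stattic against None, -0.15 for Kira8+Stattic against None and -0.12 for Kira8+Stattic against Kira8, and turned no sign among the 45.

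Leaving out single libraries, where a lone library is assumed to vary like the other groups, gave 2 to 3 receptor genes for Kira8 against None, 7 to 8 for Stattic, 8 to 9 for Kira8+Stattic, 5 to 8 for Kira8+Stattic against Kira8 (5 without Kira8 replicate 3) and 0 to 2 interactions. Counts over all genes ran from 1642 to 4118 for Kira8 against None, 3270 to 7457 for Kira8+Stattic against Kira8, 1 to 15 for Kira8+Stattic against Stattic and 498 to 2066 for the interaction, the lowest without Kira8 replicates 1 or 3 except for the third (Stattic replicate 3). Values that changed sign had ranges, for Kira8 against None, of -0.32 to 0.0074 (Il2ra), -0.39 to 0.051 (Il6st) and -0.21 to 0.014 (Il12rb2), for Stattic against None of -0.27 to 0.014 (Il6ra) and for Kira8+Stattic against None of -0.22 to 0.26 (Il23r).

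The labels do not pair replicates by number. Deviations of same-numbered libraries correlated at -0.157 to 0.451, over 0.1 in 11 of 13 pairs, and a library was nearest to its own number in 22 of 26 checks, a hint from the data only. With 2 libraries in Stattic and in Kira8, deviations within each of these groups mirror each other. Pairs and checks therefore repeat values (Stattic with Kira8 gave 0.213 for replicates 1 and again for replicates 3), and the tallies are not independent. With the replicate block 9, 8, 3, 7, 0 and 1 receptor genes were called for Kira8+Stattic, Stattic and Kira8 against None, Kira8+Stattic against Kira8 and against Stattic, and the interaction; the block ended the Il12rb1 call for Kira8+Stattic against Kira8 and no other receptor call. Groups of 2 and 3 libraries limit what can be detected.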
